A study of Torulaspora microellipsoides with 8 samples.

Results

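The mitochondrial ribosomal proteins of Torulaspora microellipsoides were followed in white and opaque cells through 43 transcribed regions with 40 gene names, out of 4464 regions with 3317 names in the whole series. A region is the stretch of an assembled transcript that matched a protein of S. cerevisiae, and it carries the name of that protein. Members were chosen by name alone: every region whose name begins with MRPL or MRPS, or with MRP or RSM followed by a digit, and the regions named PET123, EHD3 and YML6. The counts of these regions were not used to choose them. The rule also takes the names IMG1, IMG2, MNP1, MAM33 and MRP8, but 0 regions entered under them, and these genes were not analysed here.

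The data were mRNA libraries of strain NCYC 2568, from 3 cultures of white cells and 3 cultures of opaque cells. White cells form small shiny colonies, and opaque cells, which arise from them as dull sectors, are larger and have a higher DNA content. Both cell types were grown in the same rich medium (YEG) at about 23 °C, from an OD600 of 0.05 to harvest in log phase at an OD600 of 1.0, and no agent was added to either. The study asked which transcripts differ between the cell types, and this is the only comparison that its labels give.

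The mitochondrial ribosome, or mitoribosome, is built from ribosomal RNAs encoded by mitochondrial DNA and from proteins that are nearly all encoded in the nucleus, made in the cytosol and imported. It descends from a bacterial ribosome, has a small subunit that reads the mRNA and a large subunit that joins amino acids, and carries many proteins that bacteria lack. It makes the few core subunits of the respiratory chain and the ATP synthase that mitochondrial DNA encodes. In budding yeasts such as C. albicans its genes are transcribed along with those of the cytosolic ribosome, whereas in S. cerevisiae the 2 sets are largely uncoupled.

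Most mitoribosomal transcripts were somewhat lower in opaque cells, by changes that were small for this series. In edgeR's quasi-likelihood test, with p-values adjusted by Benjamini-Hochberg across the 4404 regions tested and a threshold of 0.05, 24 of the 43 regions had lower and 3 had higher levels in opaque than in white cells, and 16 did not pass. The share called lower was 55.8%, against 37.6% of all tested regions, and the share called higher was 6.98%, against 36.6%. In either direction 62.8% of the members passed, against 74.2% of all tested regions. The median log2 fold change (opaque against white, as throughout) was -0.23, with quartiles of -0.43 and -0.07, while over all tested regions it was -0.02. A log2 fold change within 0.5 of 0 was found for 32 members (74.4%), against 46.7% of all tested regions. Only RSM22 and a 128-bp region named MRPL4 changed at least 4-fold, a size that 11.2% of all tested regions reached (5.93% upward and 5.25% downward), and no other member that passed changed by as much as 2-fold. In 27 members each opaque culture lay below each white culture (39.9% of all tested regions), in 3 each lay above, and in 13 the cell types overlapped; in either direction 69.8% of the members and 77.8% of all tested regions were free of overlap.

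**Figure D1:**
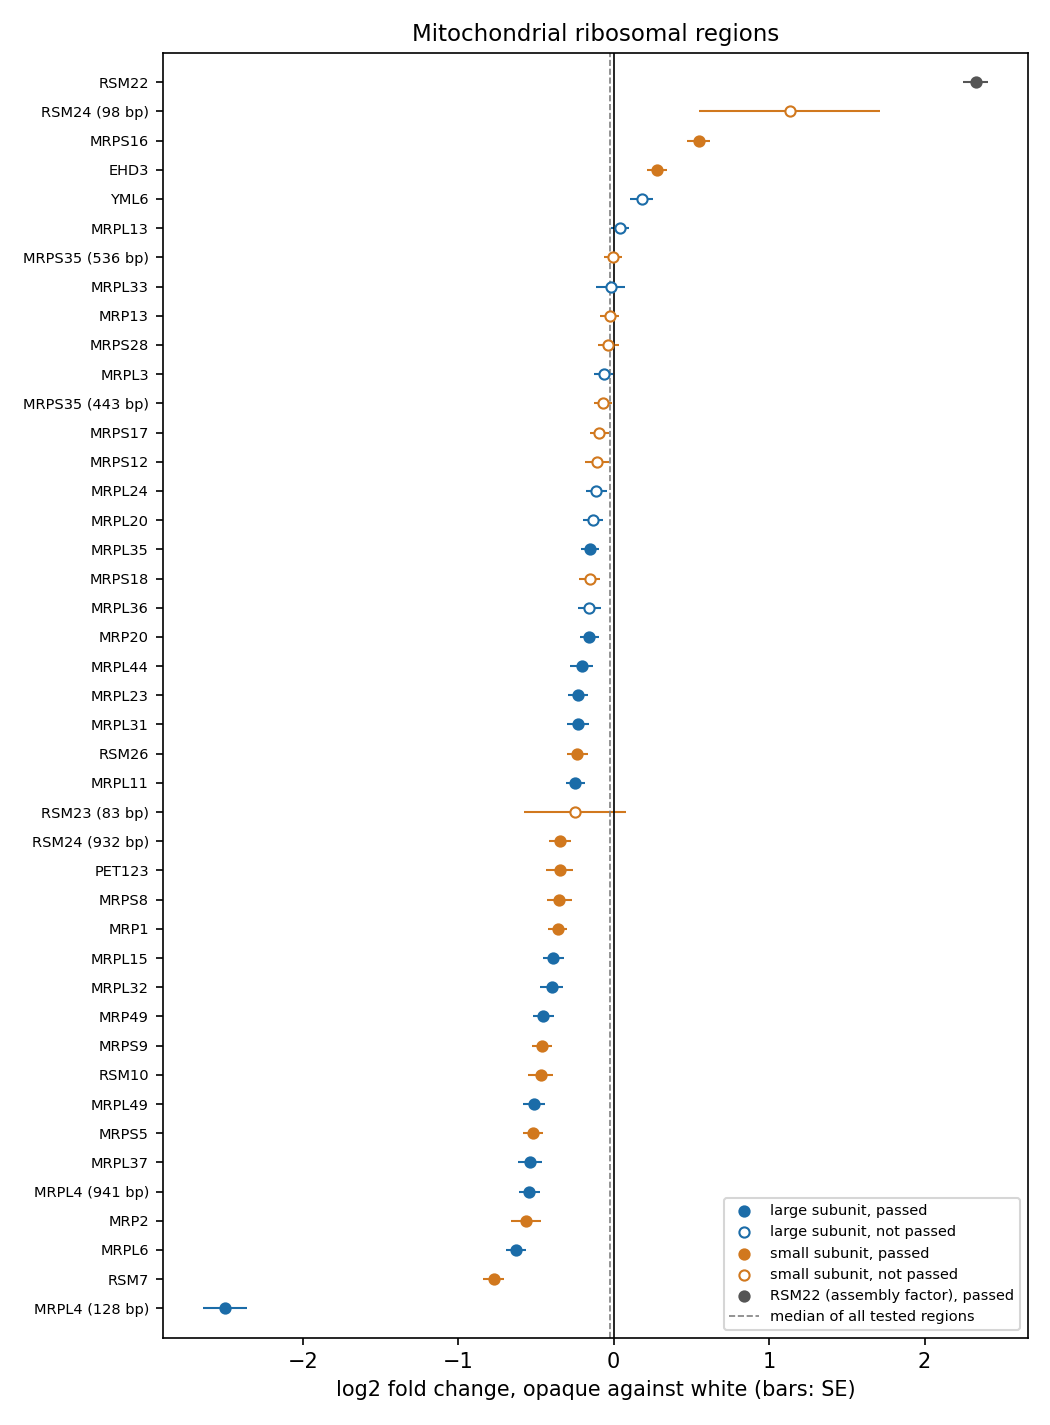
Log2 fold change of each of the 43 regions in opaque against white cells (x axis), with its standard error as a bar; filled points passed the test and open points did not, and the dashed line is the median of all tested regions (-0.02). All but RSM22, RSM24 (98 bp) and MRPL4 (128 bp) lie between -0.77 and 0.55, most of them left of the dashed line.

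The 39 regions of at least 200 bp that encode a structural protein (38 names) held 23 lower, 2 higher and 14 that did not pass. Their log2 fold changes ran from -0.77 for RSM7 to 0.55 for MRPS16, and 35 of the 39 were below 0. The 23 lower regions fell by 10.05% (MRPL35) to 41.5% (RSM7). The counts behind these values were high, from 483 to 7595 for a member of at least 200 bp in a library, and the median SE of their log2 values was 0.067. Summed over the 39 regions, the level was 4102, 4172 and 3857 CPM (counts scaled to library size with TMM) in white cultures and 3484, 3387 and 3498 CPM in opaque cultures. Every opaque culture lay below every white culture, and the means of 4044 ± 166 and 3456 ± 61.0 CPM (SD, n = 3) differed by 14.5%.

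Library totals were 24948791 to 50126043 counts, with no order between the cell types, and the biological coefficient of variation over all regions was 0.0847. TMM factors, which correct for libraries in which a few transcripts take a large share, were 1.024 to 1.091 in white and 0.9406 to 0.9507 in opaque cultures. Regions of cytosolic ribosomal proteins took 7.82 to 8.36% of the counts in white and 16.8 to 17.5% in opaque cultures, and the 43 mitoribosomal regions took 0.425 to 0.437% and 0.332 to 0.341%. When TMM was replaced by scaling to the upper quartile or to total counts, the median of all tested regions moved by -0.12 and -0.16, and the mitoribosomal median lay 0.21 below that of all regions under each of the 3 scalings. A change of scaling moves all regions by nearly the same amount, so this difference stays alike by construction and is no check of the result. In RNA of whole cultures, fewer transcripts of a kind per cell and more transcripts of other kinds cannot be told apart. XBP1 and CTT1, which the study named for white cells, and RPL30, GAP1 and MEP2, which it named for opaque cells, were all on the side that the labels give, although the study chose them on these samples.

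Large subunit proteins with a bacterial counterpart were lower or did not pass. Of 11 regions of at least 200 bp, 7 were lower and 4 did not pass, with a median of -0.23. MRPL6 (ribosomal protein uL6m), at 248045 to 248662 on scaffold 10 of the CLIB830T assembly, had the largest fall of the subunit among regions of this length. MRPL6 was at 114, 123 and 109 CPM in white cultures 1 to 3 and at 76.5, 75.3 and 72.4 CPM in opaque cultures. The cell types did not overlap, and MRPL6 fell by 35.3% (log2 fold change -0.63 ± 0.066, SE, edgeR adjusted p = 5.3e-06).

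MRPL4 (uL29m), whose protein sits near the exit of the tunnel through which the new chain leaves, was nearly as far below its white level. Its 941-bp region, at 217718 to 218659 on scaffold 4, was at 136, 148 and 133 CPM in white and at 100.005, 93.9 and 92.4 CPM in opaque cultures, and MRPL4 changed by -0.54 ± 0.066 (log2 ± SE, edgeR adjusted p = 2e-05). MRPL49 (bL21m) followed, with 100.1, 87.5 and 85.3 CPM in white and 61.8, 65.2 and 64.4 CPM in opaque cultures and a log2 fold change of -0.51 ± 0.073. All 3 genes were lower in each opaque culture than in any white culture.

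MRPL32 (bL32m) is the protein that the inner membrane m-AAA protease matures in S. cerevisiae, a step needed to assemble the large subunit there. Its region, at 1163411 to 1163899 on scaffold 2, was at 156, 145 and 134 CPM in white and at 109.7, 103 and 117 CPM in opaque cultures. MRPL32 changed by -0.40 ± 0.075 (edgeR adjusted p = 5.6e-04), again without overlap. MRPL11 (uL10m, of the stalk base) changed by -0.25, MRPL23 (uL13m) by -0.23 and MRP20 (uL23m, at the tunnel exit) by -0.16 ± 0.062. The call for MRP20 (edgeR adjusted p = 0.040) did not pass once white culture 1 or 2 or opaque culture 2 or 3 was left out, with adjusted p of 0.073, 0.076, 0.064 and 0.053.

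The 4 regions of this class that did not pass were YML6, MRPL33, MRPL24 and MRPL36. YML6 (uL4m, which lines the tunnel) had the highest value of the large subunit, with 98.0, 116 and 99.5 CPM in white and 123, 117 and 114 CPM in opaque cultures. Opaque culture 3 lay below white culture 2, and the difference of 0.18 ± 0.076 missed the threshold (edgeR adjusted p = 0.0504). Without white culture 2 it was 0.26 and passed (edgeR adjusted p = 0.0035). MRPL33 (uL30m) was at -0.02, MRPL24 (bL28m) at -0.11 and MRPL36 (bL31m) at -0.16 ± 0.075 (log2 fold change). The last passed without white culture 3 (-0.22, edgeR adjusted p = 0.025) and without opaque culture 1 (-0.22, edgeR adjusted p = 0.031).

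Large subunit proteins that mitochondria have and bacteria lack behaved much the same in number. Of 9 regions, 6 were lower and 3 did not pass, with a median of -0.21. MRPL37 (mL54), at 976341 to 976649 on scaffold 3, was at 30.4, 31.6 and 30.0 CPM in white and at 21.8, 20.01 and 21.4 CPM in opaque cultures. The cultures of each cell type lay close together, and MRPL37 fell by 31.3% (log2 fold change -0.54 ± 0.079, edgeR adjusted p = 8.6e-05). MRP49 (mL61) changed by -0.45, MRPL15 (mL57) by -0.39 and MRPL31 (mL60) by -0.23, and each was lower in every opaque culture than in any white culture.

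In this class the smallest falls that passed were those of MRPL44 (mL53), at -0.21, and MRPL35 (mL38), at -0.15. MRPL35 was at 90.0, 88.9 and 86.8 CPM in white and at 81.3, 79.4 and 78.3 CPM in opaque cultures, and it fell by 10.05%, with little spread between cultures (SE 0.057 on the log2 scale, edgeR adjusted p = 0.031). Its adjusted p was 0.052 without white culture 1 and without white culture 2, and that of MRPL44 (edgeR adjusted p = 0.025) was 0.056 and 0.071 without the same cultures and 0.052 without opaque culture 2. MRPL20 (mL58, -0.13), MRPL3 (mL44, -0.07) and MRPL13 (mL50, 0.04) did not pass. MRPL20 passed without white culture 1 (-0.18, edgeR adjusted p = 0.047) and without opaque culture 1 (-0.18, edgeR adjusted p = 0.0423). MRPL13 was at 105, 107 and 108 CPM in white and at 106, 109 and 115 CPM in opaque cultures, and its cultures overlapped. Over the whole large subunit no region was higher in opaque cells by edgeR, against 1 (YML6) at an unadjusted p under 0.05 and 1 with DESeq2.

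**Figure D2:**
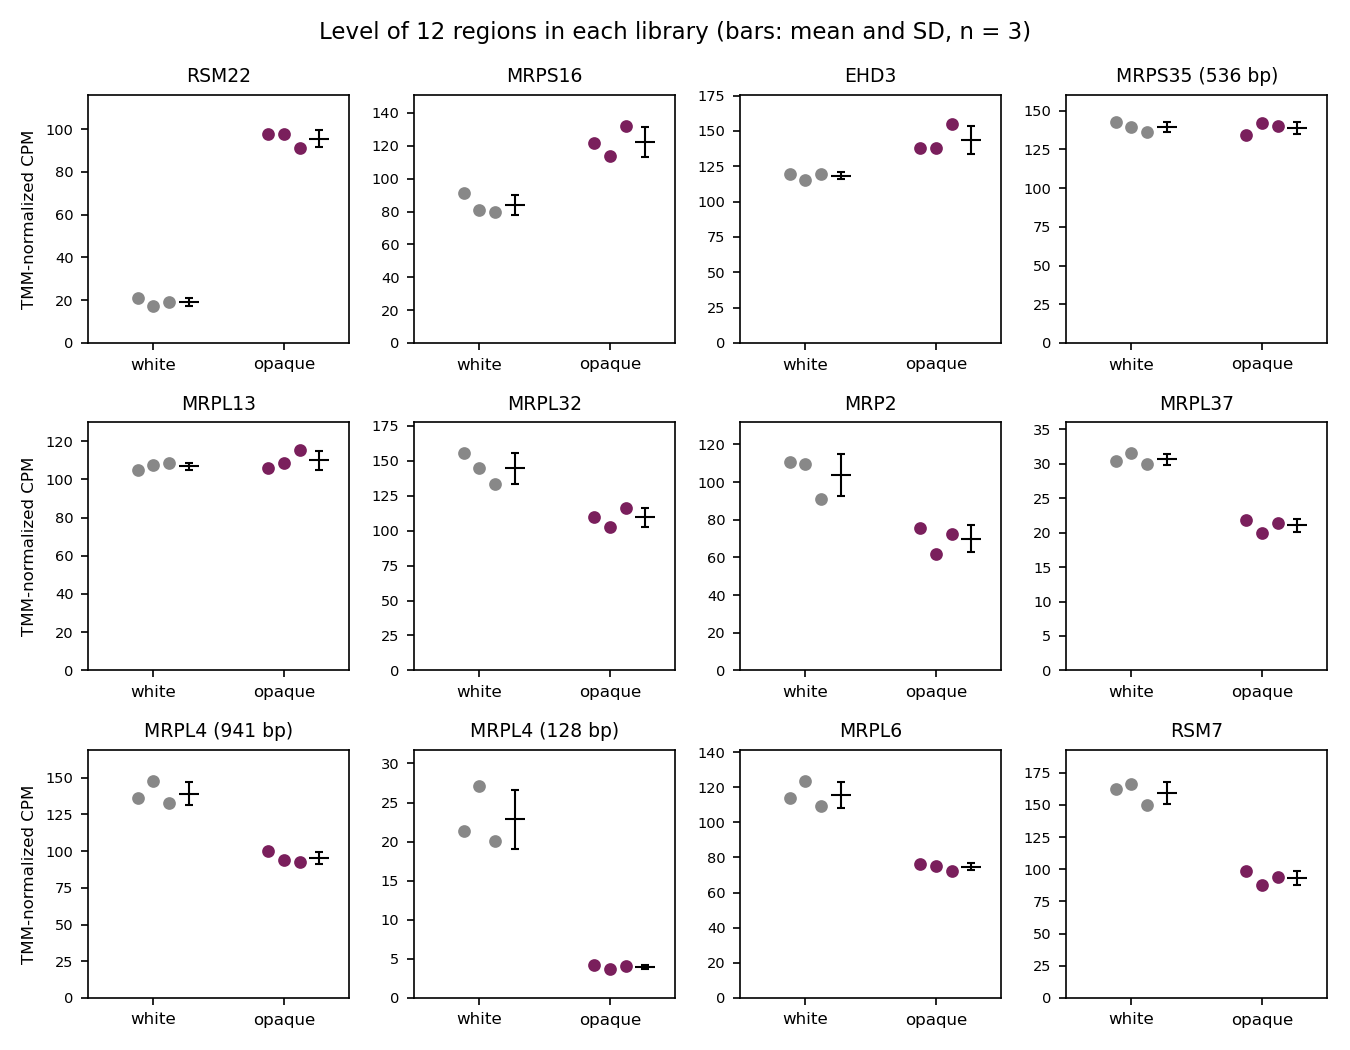
TMM-normalized CPM (y axis, from 0) of 12 regions in each white (grey) and opaque (purple) culture, with the mean and SD of the 3 cultures as a bar. RSM22, MRPS16 and EHD3 are higher in all opaque cultures, MRPS35 (536 bp) and MRPL13 overlap, and the other 7 are lower in all opaque cultures.

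The small subunit held both the largest fall and the largest rise among structural regions of at least 200 bp. Of its 11 such regions with a bacterial counterpart, 6 were lower, 1 was higher and 4 did not pass, with a median of -0.35. RSM7 (uS7m), which in bacteria starts the folding of the head of the small subunit, lies at 665069 to 665698 on scaffold 7. RSM7 was at 162.5, 166 and 149.7 CPM in white and at 98.5, 87.4 and 93.7 CPM in opaque cultures. The lowest white culture was far above the highest opaque culture, and RSM7 fell by 41.5% (log2 fold change -0.77 ± 0.070, edgeR adjusted p = 1.5e-06).

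MRPS16 (bS16m) went the other way. Its region, at 199591 to 199947 on the same scaffold, was at 91.1, 81.2 and 79.6 CPM in white and at 122, 114 and 132 CPM in opaque cultures. The cell types did not overlap, and MRPS16 rose by 45.9% in opaque cells (log2 fold change 0.55 ± 0.077, edgeR adjusted p = 6.1e-05). Of the members with a bacterial counterpart, in either subunit, MRPS16 was the only one that was higher by this test.

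MRP2 (uS14m) stood at 111, 109.7 and 91.1 CPM in white and at 75.7, 61.8 and 72.6 CPM in opaque cultures. This region, at 1321911 to 1322255 on scaffold 3, varied more between cultures than RSM7 did but did not overlap (log2 fold change -0.57 ± 0.096, edgeR adjusted p = 2.9e-04). MRPS5 (uS5m, part of the channel through which mRNA enters) changed by -0.52, RSM10 (uS10m) by -0.47, MRPS9 (uS9m) by -0.46 and MRPS8 (uS8m) by -0.35. MRPS18 (uS11m, -0.15), MRPS12 (uS12m, of the decoding centre, -0.11), MRPS17 (uS17m, -0.09) and MRPS28 (uS15m, -0.03) did not pass. MRPS18 was lower in all opaque cultures, at 53.9 to 56.0 CPM against 58.5 to 65.4 CPM, but narrowly missed the threshold (edgeR adjusted p = 0.056). It passed without white culture 1 (-0.21, edgeR adjusted p = 0.029) and without opaque culture 3 (-0.18, edgeR adjusted p = 0.0471).

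Among the 8 small subunit regions of at least 200 bp that are specific to mitochondria, 4 were lower, 1 was higher and 3 did not pass, with a median of -0.15. MRP1 (mS43) changed by -0.36, PET123 (mS26) by -0.35, RSM24 (mS35, 932 bp) by -0.35 and RSM26 (mS42) by -0.23. MRP1 and RSM26 are paralogs related to superoxide dismutase, and both were lower. MRP13 (mS44) was at -0.03 and did not pass.

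EHD3 (mS47) was the second structural gene that rose. In S. cerevisiae it encodes 3-hydroxyisobutyryl-CoA hydrolase, an enzyme of valine breakdown that is also a protein of the small subunit. EHD3, at 494093 to 495481 on scaffold 5, was at 119.7, 115 and 119.7 CPM in white and at 138, 138 and 155 CPM in opaque cultures. The cell types did not overlap, and EHD3 rose by 21.3% (log2 fold change 0.28 ± 0.066, edgeR adjusted p = 0.0027). When libraries were scaled by total counts the change was 0.12 and did not pass (edgeR adjusted p = 0.13).

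RSM22 was the one member of at least 200 bp that changed by more than 2-fold, and it is no structural protein. It has the domain of a methyltransferase and is needed to assemble the small subunit. Its region, 1883 bp at 1046403 to 1048286 on scaffold 1, was at 20.8, 17.2 and 19.1 CPM in white and at 97.7, 97.9 and 91.0 CPM in opaque cultures. The highest white culture was far below the lowest opaque culture, and RSM22 rose 5.01-fold (log2 fold change 2.33 ± 0.082, edgeR adjusted p = 5.4e-10). Of all tested regions, 95.6% had a lower log2 fold change than RSM22.

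The list of 6 genes for mitoribosome assembly held a rise of the same size. MRM1, the methyltransferase of the large mitochondrial ribosomal RNA, was at 19.96 ± 0.78 CPM in white and 97.9 ± 5.34 CPM in opaque cells (SD, n = 3), and its log2 fold change was 2.30 ± 0.071 (edgeR adjusted p = 2.4e-10). MSS116 (0.56), a DEAD-box RNA helicase that acts mainly in intron splicing, and MRH4 (0.22), a helicase of large subunit assembly, were also higher. MRH4 (edgeR adjusted p = 0.025) did not pass with upper-quartile or total-count scaling, nor without white culture 1 or 3 or opaque culture 1 (edgeR adjusted p of 0.105, 0.0904 and 0.13), and 2 of the 6 were then higher in place of 3. YTA12 (-0.48) and AFG3 (-0.22), which form the m-AAA protease that matures MRPL32, were both lower, and MTG1 did not pass. The median of the 6 was 0.16, but 0.00 when scaled by total counts, 0.087 without white culture 1, 0.23 without white culture 2 and 0.082 without opaque culture 1.

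MRPS35 (mS45) has a pair of regions of 443 and 536 bp, 229 bp apart in the same transcript, and they gave like values. The 536-bp region was at 143, 139.5 and 136 CPM in white and at 135, 142 and 140.1 CPM in opaque cultures (-0.01, edgeR adjusted p = 0.93). The 443-bp region was at 108, 104 and 101 CPM and at 99.5, 99.3 and 99.7 CPM (-0.07, edgeR adjusted p = 0.30), and neither passed.

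MRPL4 and RSM24 each have a full-length region and a second short one elsewhere. The second MRPL4 region, 128 bp at 726470 to 726598 on scaffold 4, matched the protein at 38.64% identity within a transcript of 1021 bp. It was at 21.4, 27.2 and 20.1 CPM in white and at 4.22, 3.73 and 4.09 CPM in opaque cultures, without overlap (log2 fold change -2.50 ± 0.14, edgeR adjusted p = 2.7e-08). This fall was larger than that of the 941-bp MRPL4 region. Of the regions beside it, PNC1, 1320 bp away on the opposite strand, changed by -3.50, and a 125-bp region named YGL036W, 455 bp away on the same strand, was at -0.22 and did not pass (edgeR adjusted p = 0.69).

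The second RSM24 region, 98 bp at 72 to 170 on scaffold 42, held 12, 7 and 19 counts in white and 15, 20 and 34 counts in opaque cultures, and its log2 fold change of 1.13 ± 0.58 did not pass (edgeR adjusted p = 0.10). Without opaque culture 1 it was 1.63 and passed (edgeR adjusted p = 0.014). The 932-bp RSM24 region, at 613135 to 614067 on scaffold 9, had 161, 162 and 143 CPM in white and 118, 123 and 125 CPM in opaque cultures (-0.35 ± 0.068, edgeR adjusted p = 7.7e-04), so the 2 regions of this name lay on opposite sides of 0. The only RSM23 region (mS29, a GTP-binding protein) was an 83-bp match at 35.71% identity, with 29, 43 and 86 counts in white and 51, 36 and 28 counts in opaque cultures. RSM23 overlapped between cell types (-0.25 ± 0.33, edgeR adjusted p = 0.51). These 3 short matches may belong to other genes, which was not tested.

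Levels per length were alike across the structural genes. In white cells the 39 regions ran from 83.0 CPM per kb for MRPL35 to 302 CPM per kb for MRP2, a 3.64-fold range, and in opaque cells from 68.4 CPM per kb for MRPL37 to 344 CPM per kb for MRPS16, a 5.03-fold range. The standard deviation of log2 CPM per kb over these regions was 0.456 in white and 0.464 in opaque cells, against 1.95 and 2.13 over all tested regions of at least 200 bp. Their median level was 151 and 131 CPM per kb, above the medians of 57.3 and 63.0 CPM per kb over all such regions.

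MRPL32, at 296 ± 22.6 CPM per kb, was next to MRP2 (302 ± 32.2) in white cells, and these levels did not differ beyond their spread (SD, n = 3). In opaque cells MRPS16 (344 ± 25.6 CPM per kb) stood above MRPS35 (536 bp, 259 ± 7.06), MRPL32 (225 ± 14.1) and MRP2 (204 ± 21.2), of which the last pair lay within their spread. RSM22 lay far below the structural genes in white cells, at 10.1 ± 0.95 CPM per kb, and still below the lowest of them in opaque cells, at 50.7 ± 2.08 CPM per kb.

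The median level per library of large subunit regions was 147 ± 3.77 CPM per kb in white and 131 ± 5.41 CPM per kb in opaque cells, and that of small subunit regions was 154 ± 6.09 and 133 ± 1.77 CPM per kb (SD, n = 3). Within each cell type the values of the subunits overlapped between cultures. Across the 39 structural regions the level in white and in opaque cells was correlated (Pearson r = 0.84, Spearman rho = 0.84), whereas the log2 fold change was weakly related to region length (r = 0.14), to identity with S. cerevisiae (r = -0.10) and to level (r = 0.02). These correlations are across genes of the same libraries, which are not independent replicates.

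**Figure D3:**
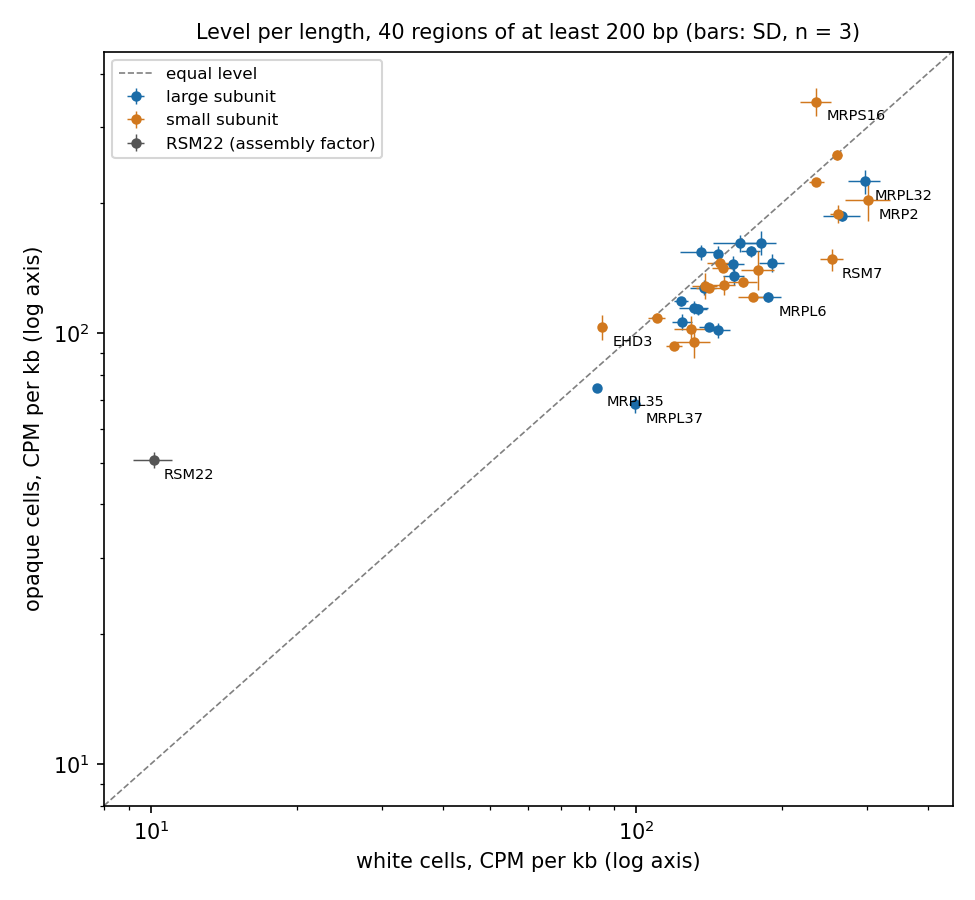
Mean level per length (CPM per kb, log axes) in white (x) and opaque (y) cells of the 40 regions of at least 200 bp, with the SD of 3 cultures as bars and a dashed line of equal level. The structural regions form a narrow cloud between 68.4 and 344 CPM per kb, mostly under the line, and RSM22 lies apart at 10.1 and 50.7 CPM per kb.

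The genes are scattered over the genome, and the genes beside them went in both directions. The 43 regions lie on 10 scaffolds, 22 on the plus and 21 on the minus strand, with 12 of them on scaffold 3, and none overlaps another region. On scaffold 3 the members had a median of -0.22, against -0.04 for the 626 tested regions there. MRP20 and MRPL23 lie 4480 bp apart on scaffold 3 with RPB2, a subunit of RNA polymerase II, between them. RPB2 changed by 0.27, whereas MRP20 and MRPL23 changed by -0.16 and -0.23.

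Neighbours that start within 1000 bp on the opposite strand, with the pair pointing away from each other, numbered 17, of which 7 were higher, 6 lower and 4 did not pass. Their median was -0.09, and the counts are near the shares over all tested regions (36.6% higher and 37.6% lower). Lower neighbours included YPL247C (-1.18), 536 bp from MRPS17, AIM25 (-0.64), 420 bp from RSM26, and IVY1 (-0.53), 508 bp from MRPL11. MRPS16 has RRP12, a factor of cytosolic ribosome assembly, at 263 bp in this arrangement, and RRP12 changed by 3.26. MRPL6 lies 290 bp from IMP3 (2.51), a protein of the complex that processes cytosolic ribosomal RNA, and RSM10 lies 445 bp from TRM7 (1.86), a tRNA methyltransferase. MRPL6 and RSM10 themselves were lower, by 0.63 and 0.47 on the log2 scale. RPS27B (1.46), of the small cytosolic subunit, lies 354 bp from RSM22, but this pair points toward each other and is not among the 17. The gene that points away from RSM22, at 499 bp, changed by 0.79.

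Of 9 further listed proteins of the mitoribosome, whose names the rule does not take, 3 had a region. Of these 3, 2 were lower and 0 higher (also 0 at an unadjusted p under 0.05 and 0 with DESeq2). MHR1 (mL67) was lower, at 124 ± 15.3 CPM in white and 80.5 ± 5.69 CPM in opaque cells (log2 fold change -0.62), as was NAM9 (uS4m, -0.30), while RML2 (uL2m, -0.13) did not pass. YDR115W (bL34m), looked up after the values of the others were seen, was also lower (-0.74 ± 0.089, edgeR adjusted p = 1.6e-05).

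Most mitochondrial translation factors and aminoacyl-tRNA synthetases were lower too. Of 6 mitochondrial translation factors 5 were lower and 0 higher (also 0 at an unadjusted p under 0.05 and 0 with DESeq2), with a median of -0.45. They included the initiation factor IFM1 (-0.76), the elongation factor TUF1 (-0.68), at 706 ± 25.9 CPM in white and 441 ± 34.1 CPM in opaque cells, and GUF1 (-0.49), while the release factor MRF1 (-0.03) did not pass. Of 12 aminoacyl-tRNA synthetases and related enzymes of mitochondria 9 were lower, 1 was higher and the median was -0.53. DIA4 (-1.19), MSY1 (-1.004) and MSD1 (-0.69), for serine, tyrosine and aspartate, were lower, and ISM1 (0.33), for isoleucine, was higher.

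Genes that act on single mitochondrial mRNAs or on mitochondrial RNA were mixed. Of 11 translational activators 5 were higher and 4 lower, near the shares over all tested regions (36.6% higher and 37.6% lower). Their median of 0.13 is the value of CBP1, a 200-bp match at 27.78% identity that did not pass. The median turned to -0.03 under scaling by total counts, where 3 were higher. It was 0.053 without white culture 2 and 0.050 without opaque culture 3. Among the activators that serve subunits of cytochrome oxidase, PET54 (0.69), PET309 (0.35) and PET122 (0.26) were higher. MSS51 (-0.84) and PET111 (-0.43) were lower, and PET494 (0.04) did not pass. SOV1 (0.85) and AEP3 (0.65) were also higher. Of 6 genes for mitochondrial transcription and RNA turnover 5 were higher, among them MTF1 (0.84), the transcription factor of mitochondrial RNA polymerase, and SUV3 (0.71), the helicase of the mitochondrial RNA-degrading complex. DSS1 (0.31), its nuclease, was higher as well, and RPM2 (-0.23) was lower. With total counts 3 of these 6 were higher. Of 4 genes for insertion of new chains into the inner membrane, MDM38 (-0.45) and COX18 (-0.26) were lower, YLH47 (0.94) was higher and MBA1 did not pass. The count of lower genes among them was 3 without white culture 3, opaque culture 1 or opaque culture 3.

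Nuclear genes for the respiratory chain and the ATP synthase, and genes of the cytosolic ribosome, had medians farther from 0. Of 33 listed nuclear-encoded subunits of respiratory complexes and of the ATP synthase, 19 had a region. All 19 were lower (0 higher also at an unadjusted p under 0.05 and with DESeq2), with a median of -1.18. SDH1 of succinate dehydrogenase (-1.61), CYT1 of the cytochrome bc1 complex (-1.66) and QCR7 of the same complex (-1.39) were among them. The lowest value, that of COX12 (-3.48), came from a 113-bp match at 25.64% identity with 0.63 CPM in white and 0.07 CPM in opaque cells. All 61 tested genes of cytosolic ribosomal proteins were higher, with a median of 1.22 and a range of 0.97 to 1.604, RPL3 (1.34), RPL7A (1.33) and RPS22A (1.54) among them. None was lower by edgeR or at an unadjusted p under 0.05, against 1 (RPS23A, a 65-bp region that the filter on low counts removed) with DESeq2, with no filter, and without white culture 3 or any 1 of the opaque cultures.

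Of 49 genes for assembly of the cytosolic ribosome 47 were higher, with a median of 2.98. They included NMD3 (3.26), UTP13 (3.32) and DBP3 (2.74), and 0 were lower (also 0 at an unadjusted p under 0.05 and 0 with DESeq2). Among the mitoribosomal members of at least 200 bp, RSM22 alone lay within the range of values of that list that passed, and MRPS16, the next highest, lay below the lowest cytosolic ribosomal protein (0.55 against 0.97). The lowest structural member, RSM7 (-0.77), lay above the median of the respiratory genes. No test of one list against another was made.

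**Figure D4:**
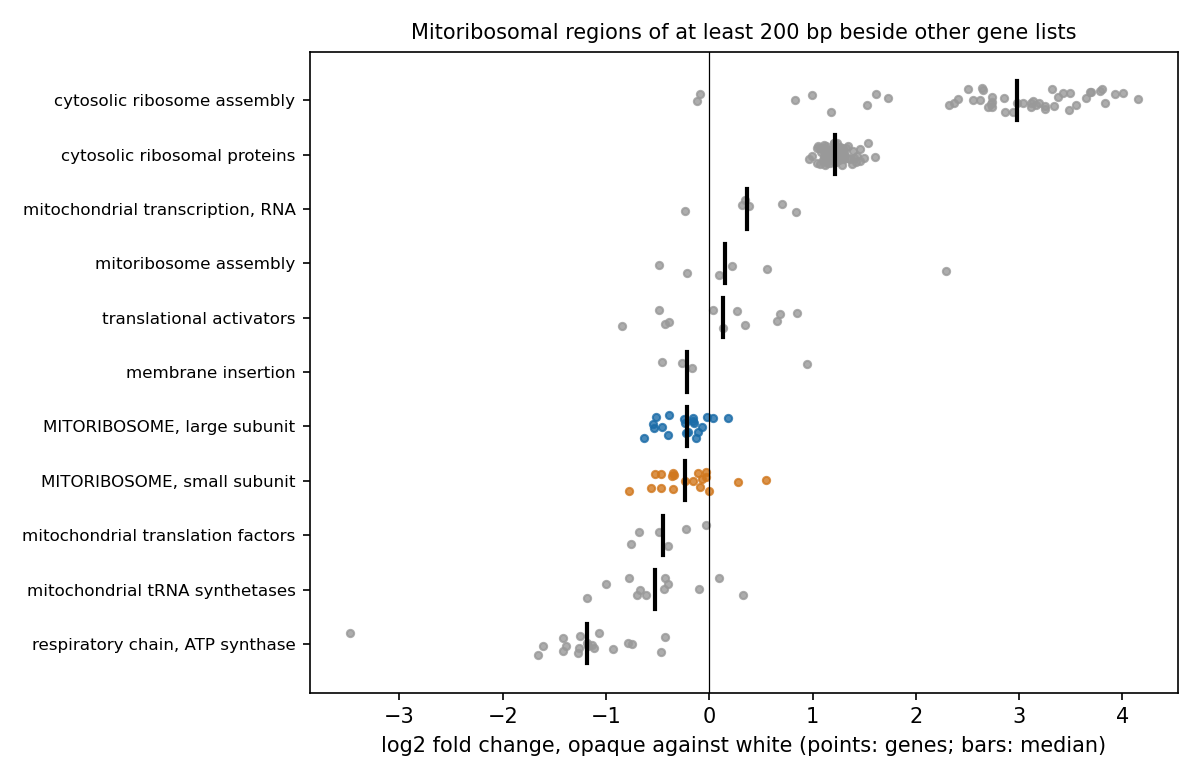
Log2 fold change in opaque against white cells (x axis) of each gene (points) in the mitoribosomal regions of at least 200 bp (large subunit blue, small subunit orange) and in other gene lists (grey), with the median of each list as a black bar. The mitoribosomal medians, near -0.2, lie between that of the respiratory chain and ATP synthase (-1.18) and that of cytosolic ribosomal proteins (1.22).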

How the data were processed

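RNA was extracted with hot acid phenol, a strand-keeping mRNA kit was used for the libraries, and reads were aligned with STAR. Transcripts were assembled, merged and named by their best BLAST match among S. cerevisiae proteins, and the cell types were compared with DESeq2 by the study. The authors deposited counts per region, which are whole numbers without normalization. The deposited files also give, for each region, other values that were used only in checks, namely the bases covered and the length in bp, and the fraction of the region covered. Percent identity to the match is given as the authors deposited it in the annotation. Whether strand was used in counting, or both reads of a pair were counted, is not given in the sources used here, and a count is therefore not a number of molecules. Coordinates are those of the annotation, on scaffolds of the CLIB830T assembly, and lengths are the end minus the start.

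Members were found by name and joined to counts by scaffold and coordinates. All 4464 regions entered edgeR 4.0.16 (R 4.3.3, limma 3.58.1), with TMM, filterByExpr, a quasi-likelihood fit (robust) on cell type alone, and Benjamini-Hochberg adjustment over 4404 tested regions, with a threshold of 0.05. Standard errors are the size of the log2 fold change divided by the square root of F. Levels between genes are CPM divided by length in kb. A name with several regions entered the other lists through its region of highest mean count. Listed names without a region did not enter. A region was found for 6 of 9 listed mitochondrial translation factors, 12 of 16 synthetases, 6 of 9 mitoribosome assembly genes and 11 of 17 translational activators. It was found for 4 of 5 membrane insertion genes, 6 of 7 for mitochondrial transcription and RNA, and 49 of 55 for cytosolic ribosome assembly. An exact two-sided permutation test of 3 against 3 cultures cannot give a p under 0.1, so none was run for single genes. The scripts were tested on simulated data. Alternatives were DESeq2 1.42.0, other scalings, filters, a block for culture number, sums per name, and leaving out each library.

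Members and lists were chosen with earlier results of these data known. Members named with values for every culture were up to 6 rises (of which there were 3) and the 6 largest falls that passed without overlap at 10 CPM or more in the higher cell type, those changed at least 4-fold, names with several regions, the 4 highest and 4 lowest levels per length, and RSM22 and EHD3. MRPL49, MRPL13 and YML6 were added after their values were seen, as were other members given by fold change, so that each member is accounted for. In other lists, up to 3 genes with the smallest p in the main direction and up to 2 in the other were named, and further genes were added afterwards. RPP1, a subunit of RNase P that the name pattern for cytosolic ribosomal proteins took in, was left out of that list after its values were seen (61 tested genes in place of 62). Labels call the samples separate cultures, and p-values measure the spread between these. Genomic DNA libraries, the genome sequence and mitochondrial transcripts were not analysed here. No pair of libraries was a duplicate.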

Additional observations from a re-analysis of the deposited data

How the results depend on the processing

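Of the 27 regions that passed, 23 passed under all 13 alternatives (21 lower, 2 higher: RSM22 and MRPS16). Scaling to the upper quartile or to total counts moves all regions down, so a lower call kept under these scalings is no check. With counts summed per name, both MRPL4 regions take the same pooled value (-0.75), so that setting does not check the 128-bp region. EHD3 was lost with total counts, and MRP20, MRPL35 and MRPL44 under DESeq2, the block or left-out cultures, as given above. Calls over the 43 regions were 4 higher and 22 lower with DESeq2, 3 and 34 under the upper quartile, and 2 and 35 under total counts. Leaving out each culture in turn gave 3 to 4 higher and 21 to 26 lower. The cause of these shifts was not tested beyond the scaling itself, which moves the median of all regions.

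The median log2 fold change of the 43 regions and that of the large subunit were both -0.35 after upper-quartile scaling and -0.39 after total-count scaling. That of the small subunit was -0.35 and -0.39, -0.31 with counts summed per name, and -0.29 to -0.15 with each culture left out. Small subunit calls were 16 lower under the upper quartile, and 17 lower and 1 higher under total counts. In the large subunit 1 region was higher with DESeq2, and 0 to 1 with each culture left out. The median of the 178 genes of the other lists together was 1.02 under the upper quartile and 0.98 under total counts. These genes still include RPP1, and lists that moved in opposite directions are mixed in this median, so it describes no single list. The median of the translational activators turned to -0.030 under total counts. The median level of members of at least 200 bp was 158 CPM per kb in white cells under total counts, and 125 and 123 CPM per kb in opaque cells under the upper quartile and total counts. RSM24 (98 bp) turned to -0.38 when the counts of both RSM24 regions were summed, by construction.

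Culture numbers gave no clear sign of pairing (correlations of deviations between same-numbered cultures of -0.02, -0.05 and 0.21, and not every culture correlated best with its own number). With 3 cultures per cell type these correlations cannot exclude a pairing, and the study describes the white and opaque cultures as matched. With culture number as a replicate block, 4 regions were higher and 22 lower, 1 large subunit region was higher, the small subunit median was -0.16, and 3259 regions passed in all, against 3267 without the block. The 3 members under 200 bp hold few counts or short matches, which limits what their values can show.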
